A study of Mus musculus with 18 samples.

Results

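The comparison set 3 caput epididymis libraries labelled 10% EtOH (ethanol) against 3 labelled 6% EtOH, all from C57BL/6J mice at 10 weeks with no cessation. The 6 libraries were chosen by the treatment and time in their labels, out of 18 in the series, and all expressed genes were examined. The series holds 6 groups of 3 libraries, namely control, 6% EtOH and 10% EtOH at 10 weeks and the same 3 treatments after cessation. Both groups compared had ethanol, so the controls of 10 weeks are quoted only to show where a level lay without it, and the 6% and 10% libraries after cessation give the same dose contrast in samples of their own. The strain is the only genotype in the labels, and the sources used here give neither the route of ethanol nor the ages of the mice. The series title puts cessation at 1 month. The labels leave unsaid whether replicates were separate animals, litters or days, and p-values therefore describe only how much these samples varied, which may be technical. Replicate numbers follow the order of deposit.

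The caput is the head of the epididymis, the duct in which sperm leaving the testis mature. Its principal cells secrete large amounts of protein into the lumen, which makes them dependent on chaperones of the endoplasmic reticulum (ER), and they release small vesicles that carry proteins and small RNAs to sperm. Ethanol is oxidised in tissues by alcohol and aldehyde dehydrogenases and by cytochrome P450 2E1, reactions that change the redox balance of the cell and bear on mitochondria and antioxidant enzymes.

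The 6 libraries held 15.6M to 21.1M reads assigned to genes. The 24 caput secretory genes listed as markers, among them the antioxidant enzyme gene Gpx5 and Adam7, summed to between 98500.3 and 106812 CPM (a gene's reads scaled to a common library size, with the TMM correction for library composition) in each of the 6. Of 8 marker genes of the other accessory glands, 5 were at 0 in all 6 libraries and none was abundant enough to test. One library stood apart. On the first principal component of all tested genes, which held 44.8% of the variance, 10% EtOH replicate 3 lay at -53.9 while the other 5 libraries lay between 7.12 and 20.4. It lay apart from the other 2 libraries of its group by more than 2 times their own gap in 45.3% of genes, against 15.3% to 29.3% of genes for the other 5 libraries. The biological coefficient of variation was 21.5% in the 10% EtOH group, 14% in the 6% EtOH group and 11.3% in the controls. The identifier of 10% EtOH replicate 3 in the labels begins with another letter than those of replicates 1 and 2 of its group. Its difference from those 2 also followed base composition. In the 1573 genes of lowest GC content, replicate 3 lay a median of 0.49 above the mean of the other 2 on the log2 scale, and in the 1573 of highest GC content a median of -0.27 from it. Values without this library, or with trends of transcript length and GC content removed, are therefore given for the genes and lists described where they differed by more than 1.5 times or in sign. List medians within 0.1 of 0 are the exception, since 19 of 29 such lists with at least 5 tested members took the other sign under at least 1 alternative, and no direction is read from them. The part of this library's differences in each result was not tested.

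No gene passed the test between 10% and 6% EtOH. In edgeR's quasi-likelihood test with Benjamini-Hochberg adjustment over 16119 genes, 0 genes (0%) had an adjusted p under 0.05, and the smallest adjusted p was 0.682. An unadjusted p under 0.05 was reached by 1044 genes (6.48%), of which 667 (4.14%) were higher with 10% EtOH and 377 (2.34%) lower. DESeq2 and limma voom also gave 0 genes, with 1037 and 944 at an unadjusted p under 0.05. The median log2 fold change (10% over 6%) was -0.01, with 5th and 95th percentiles of -0.47 and 0.59, 48.6% of genes lay above 0, and the median standard error (SE) was 0.17. The 2 groups did not overlap in 2321 genes (14.4%), with all 3 libraries of 10% EtOH above all 3 of 6% EtOH in 1182 genes (7.33%) and below them in 1139 (7.07%). These shares are the background for every count of list members given here at 10 weeks. Fitted without any filter on low counts, the same test called 225 genes, 204 higher and 21 lower. Of the 225, 218 were also tested with the filter. Their fold changes differed by at most 0.0103 on the log2 scale between the fits, while the estimated prior degrees of freedom for the spread went from 5.89 to infinite.

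Large differences were few. At a mean log2 CPM of 1 or more (12997 genes), 80 were more than 2-fold higher with 10% EtOH and 11 more than 2-fold lower. In 72 of the 80, 10% EtOH replicate 3 was the highest of the 6 libraries. With that library left out, 12 of the 80 were more than 2-fold higher and 72 had a log2 fold change above 0, and the median over the 80 was 0.58 in place of 1.19. Of the 11 on the lower side, 9 remained more than 2-fold lower. In 34 of the 80 and in 1 of the 11 the groups did not overlap. The 1 was Stac2, a gene named here after its values were seen, at 5.08, 6.07 and 4.61 CPM with 6% EtOH and 1.49, 3.72 and 1.98 CPM with 10% EtOH.

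The 10 genes of smallest p in each direction, at a mean log2 CPM of at least 1, are described next as the closest to the threshold, none of them past it. All 20 had an adjusted p of 0.682 in edgeR's quasi-likelihood test, and in all 20 the 2 groups did not overlap. Being chosen by p, they show the size of the smallest-p differences and support no count.

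**Figure D1:**
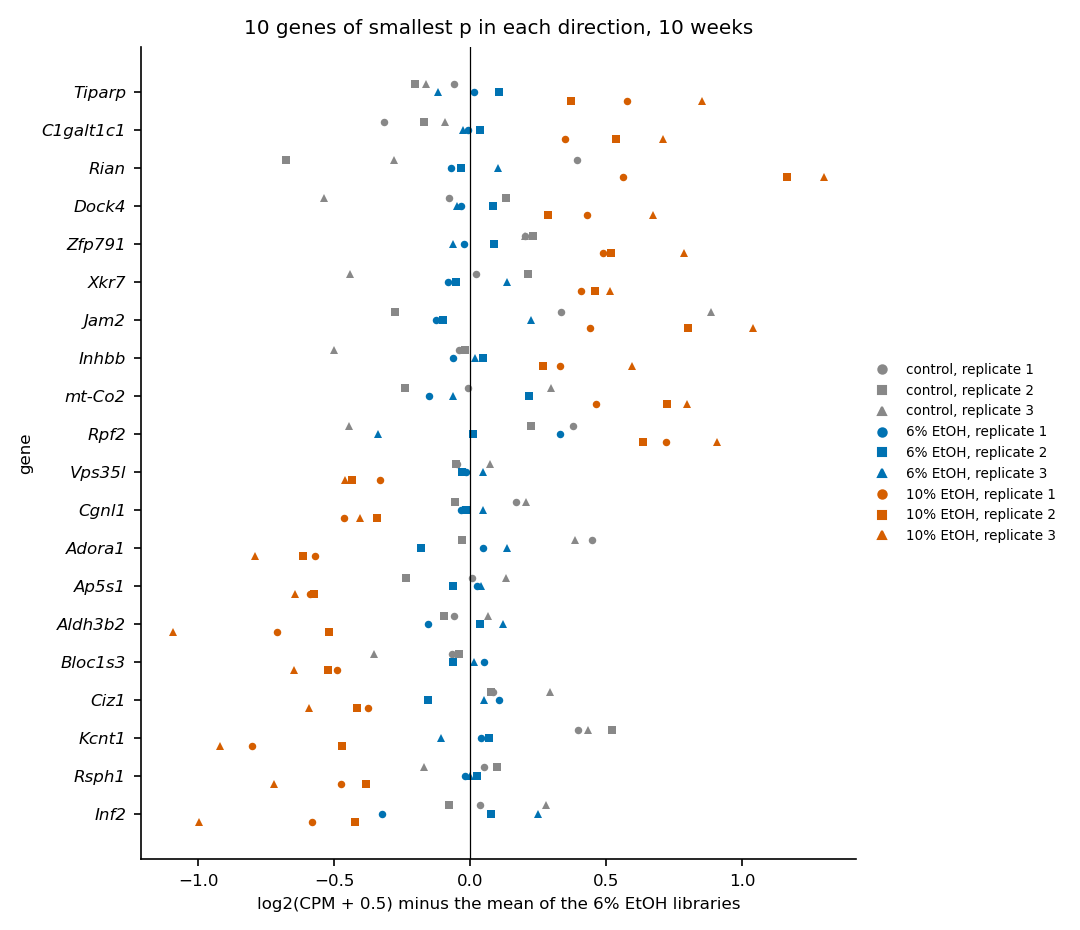
Level of the 20 genes of smallest p in each 10-week library, as log2(CPM + 0.5) minus the mean of the 3 libraries of 6% EtOH (horizontal axis), 1 gene per row; grey, blue and orange points are control, 6% EtOH and 10% EtOH, and the shape gives the replicate. In each row the 3 orange points lie on 1 side of the 3 blue points.

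Tiparp, a mono-ADP-ribosyltransferase induced through the aryl hydrocarbon receptor, had the smallest p. It stood at 108, 116 and 99.0 CPM in the 3 libraries of 6% EtOH and at 161, 139 and 195 CPM in those of 10% EtOH, with 103, 93.5 and 96.1 CPM in the controls. The highest 6% EtOH library lay below the lowest 10% EtOH library, and the controls lay within or just below the 6% EtOH range. The log2 fold change was 0.62 ± 0.13 (SE), a ratio of 1.53. Without 10% EtOH replicate 3 it was 0.48, and with length and GC trends removed 0.39.

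Of the other 9 genes on the higher side, C1galt1c1, the chaperone of the core 1 O-glycan galactosyltransferase, stood at 20.0, 20.6 and 19.7 CPM with 6% EtOH and 25.7, 29.4 and 33.2 CPM with 10% EtOH, a log2 fold change of 0.55 ± 0.13. Its controls, at 16.03, 17.8 and 18.8 CPM, all lay below the 6% EtOH libraries. Rian, an imprinted long noncoding RNA expressed from the maternal chromosome, was at 2.22, 2.29 and 2.57 CPM with 6% EtOH and 3.72, 5.90 and 6.53 CPM with 10% EtOH, the largest fold change of the 20 genes at 1.19 ± 0.28 on the log2 scale. Its levels were low, and 1 control library at 3.25 CPM also lay above the 6% EtOH range. Jam2, a junctional adhesion molecule, was at 5.84, 5.96 and 7.58 CPM with 6% EtOH and 8.87, 11.5 and 13.7 CPM with 10% EtOH (0.82 ± 0.21). The controls of Jam2 spanned 8.22, 5.20 and 12.3 CPM, which covered most of both ranges.

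Inhbb, the beta B subunit of activins and inhibins, was at 92.4, 99.9 and 98.0 CPM with 6% EtOH and 122, 116 and 146 CPM with 10% EtOH (0.41 ± 0.11). Dock4, an activator of small GTPases, was at 63.4, 68.8 and 62.7 CPM and 87.6, 79.2 and 104 CPM (0.48 ± 0.11). In both genes the highest of the 6 values was 10% EtOH replicate 3, and 1 control library lay well below the 6% EtOH range. Zfp791, a zinc finger protein gene, was at 8.13, 8.82 and 7.91 CPM and 11.8, 12.1 and 14.6 CPM (0.63 ± 0.16), Xkr7, of the XK-related membrane proteins, at 18.2, 18.6 and 21.2 CPM and 25.7, 26.7 and 27.8 CPM (0.47 ± 0.12), and Rpf2, a ribosome assembly factor, at 8.77, 6.93 and 5.34 CPM and 11.6, 10.9 and 13.4 CPM (0.77 ± 0.20). The remaining gene was mt-Co2, described with the mitochondrial genes. Without 10% EtOH replicate 3 the 10 log2 fold changes ranged from 0.30 for Inhbb to 1.02 for Rian, and all 10 stayed above 0. With length and GC trends removed the value was 0.26 for C1galt1c1 and 0.75 for Rian.

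On the lower side, Vps35l, a subunit of the retriever complex that recycles membrane proteins from endosomes, stood at 72.4, 71.7 and 75.5 CPM with 6% EtOH and 57.9, 54.0 and 53.0 CPM with 10% EtOH, a log2 fold change of -0.41 ± 0.09. Cgnl1, a cytoplasmic protein of epithelial junctions, stood at 69.6, 70.5 and 73.7 CPM and 51.6, 56.0 and 53.6 CPM (-0.41 ± 0.09). For both, the spread within each group was small beside the gap between the groups, and the 3 controls of each (70.7, 70.6 and 76.9 CPM and 80.2, 68.5 and 82.2 CPM) lay at or near the 6% EtOH level. Ap5s1, the small subunit of the adaptor complex AP-5, was at 10.5, 9.85 and 10.6 CPM with 6% EtOH and 6.69, 6.77 and 6.41 CPM with 10% EtOH (-0.64 ± 0.16). Bloc1s3, a subunit of the complex that sorts cargo to lysosome-related organelles, was at 13.3, 12.2 and 12.9 CPM and 8.97, 8.76 and 7.99 CPM (-0.58 ± 0.14). These are single genes of endosomal transport chosen by p, and no list of that pathway was examined.

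Aldh3b2, a member of the aldehyde dehydrogenase superfamily, had the largest negative log2 fold change of the 20, at -0.81 ± 0.20. It stood at 9.27, 10.7 and 11.3 CPM with 6% EtOH, 6.15, 7.10 and 4.61 CPM with 10% EtOH and 9.95, 9.68 and 10.9 CPM in the controls, so that the controls lay with 6% EtOH. Adora1, the A1 adenosine receptor, was at 12.4, 10.5 and 13.2 CPM and 7.88, 7.63 and 6.70 CPM (-0.69 ± 0.16), and Kcnt1, a sodium-activated potassium channel, at 7.50, 7.68 and 6.72 CPM and 3.97, 5.11 and 3.61 CPM (-0.79 ± 0.21). The control means of both lay on the far side of 6% EtOH from 10% EtOH, at 14.7 ± 2.59 CPM (SD, n = 3) for Adora1 and 10.1 ± 0.486 CPM for Kcnt1. Inf2, a formin that assembles actin filaments, was at 19.2, 25.5 and 28.9 CPM and 16.01, 17.9 and 11.9 CPM (-0.68 ± 0.19). Ciz1, a nuclear zinc finger protein, was at 32.8, 27.3 and 31.6 CPM and 23.4, 22.8 and 20.1 CPM (-0.47 ± 0.12). Rsph1, a radial spoke protein of motile cilia, was at 14.04, 14.5 and 14.2 CPM and 10.1, 10.8 and 8.45 CPM (-0.54 ± 0.15). Without 10% EtOH replicate 3 the 10 log2 fold changes on this side ranged from -0.69 for Kcnt1 to -0.38 for Vps35l.

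The controls were placed against the 2 ethanol groups as a description, since they took no part in the test. For 11 of the 20 genes the control mean lay beyond the 6% EtOH mean, on the side away from 10% EtOH, for 9 it lay between the 2 means, and for 0 it lay beyond the 10% EtOH mean. Over all 2321 genes whose groups did not overlap the counts were 1427, 767 and 127. Because genes were picked for a gap between 6% and 10% EtOH, such counts depend on that choice, and nothing is read from them about dose.

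In the libraries after cessation, 16 of the 20 genes had a log2 fold change of the same sign and in 3 the groups did not overlap in the same direction. The share of all genes that kept their sign after cessation was not counted, so nothing is read from the 16. There, 0 of 16808 genes (0%) had an adjusted p under 0.05 between 10% and 6% EtOH in edgeR's quasi-likelihood test (smallest adjusted p 0.527), with 894 (5.32%) at an unadjusted p under 0.05 and 48.8% of log2 fold changes above 0. The 3 genes were Cgnl1, Rsph1 and Inf2, all on the lower side, where 5.29% of all genes did not overlap (3.39% on the higher side and 8.67% on either). Rsph1 was at 25.6, 17.3 and 14.8 CPM with 6% EtOH and 14.5, 10.8 and 11.9 CPM with 10% EtOH after cessation (-0.63 ± 0.25), and Inf2 at 34.3, 23.6 and 22.9 CPM and 20.4, 15.7 and 21.1 CPM (-0.49 ± 0.21). Rsph1 belongs to a list of 17 ciliated cell markers with a median log2 fold change of -1.58 after cessation and 1 gene above 0. Of these 17, 12 were lower at an unadjusted p under 0.05, beside 3.85% of all genes. The fall in Rsph1 is thus not particular to that gene. C1galt1c1 had overlapping groups after cessation, at 12.1, 16.5 and 24.0 CPM and 21.3, 38.4 and 24.7 CPM. Its log2 fold change there was 0.69 ± 0.29, beside 0.55 ± 0.13 at 10 weeks, with an unadjusted p of 0.0412 in edgeR's test. The difference between the times had an unadjusted p of 0.708 for this gene in edgeR's test of the interaction. For Tiparp the groups overlapped after cessation, at 178, 133 and 204 CPM and 125, 197 and 146 CPM (-0.14 ± 0.22), and all 6 values lay above the 6% EtOH libraries of 10 weeks. The difference between the times was tested as an interaction over 17826 genes, and 0 genes (0%) passed by edgeR's quasi-likelihood test (smallest adjusted p 1), with 509 (2.86%) at an unadjusted p under 0.05. limma voom also gave 0 genes, with 448 at that unadjusted p. DESeq2 gave 1 gene, the transcription factor Klf6, with a log2 difference of 1.39 and an adjusted p of 0.0434, against 563 genes at an unadjusted p under 0.05. Klf6 stood at 44.5, 51.9 and 45.5 CPM with 6% EtOH and 57.0, 54.4 and 79.6 CPM with 10% EtOH at 10 weeks, and at 205, 182 and 171 CPM and 74.3, 124 and 87.8 CPM after cessation. Its 6% EtOH libraries after cessation were the highest of the 12 values.

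All 12 tested mitochondrially encoded genes had a log2 fold change above 0, and none passed the test. These genes encode the core subunits of respiratory complexes I, III and IV and of ATP synthase, and all are copied from the circular mitochondrial genome. The share of a library's reads assigned to them was 0.997% to 1.41% with 6% EtOH, 1.47% to 2.76% with 10% EtOH and 0.880% to 1.34% in controls. Of 13 listed genes, 12 were tested. All 12 had a log2 fold change above 0 (median 0.77, against -0.01 over all genes), 9 had an unadjusted p under 0.05 (background 4.14%), and in 6 the groups did not overlap (background 7.33%). None passed the adjusted threshold. These genes share 1 genome and few transcripts, so they are not separate measurements.

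mt-Nd5, a complex I subunit, stood at 2201, 2580.0 and 1814 CPM with 6% EtOH and 2890.5, 2769.8 and 4527 CPM with 10% EtOH (0.63 ± 0.21 on the log2 scale). mt-Co1, the catalytic subunit of complex IV, stood at 4453, 5249 and 3705 CPM and 6183, 5517 and 11104 CPM (0.77 ± 0.26). mt-Cytb, of complex III, stood at 2596, 3028 and 2020.5 CPM and 3512, 3214 and 6318 CPM (0.78 ± 0.27). In each of these, replicates 1 and 2 of 10% EtOH lay just above the highest 6% EtOH library, and replicate 3 lay far above both. mt-Nd4 and mt-Nd1, also of complex I, had the same order, at log2 fold changes of 0.63 ± 0.21 and 0.78 ± 0.28. mt-Co2, also of complex IV and the gene of smallest p among the 12, was measured at only 6.10, 8.02 and 6.52 CPM and 9.62, 11.6 and 12.2 CPM (0.70 ± 0.18). mt-Co2, mt-Co3, mt-Atp6, mt-Nd3 and mt-Nd4l were all assigned few reads, and how reads matching both the mitochondrial genome and its nuclear copies were counted is not given in the sources used here, so the values of all 12 genes are uncertain. Without 10% EtOH replicate 3 the median of the list was 0.37, with all 12 genes above 0 and 6 of them at an unadjusted p under 0.05. With length and GC trends removed it was also 0.37, with 11 of 12 above 0. In the first of these fits mt-Nd5, mt-Co1, mt-Cytb, mt-Nd4 and mt-Nd1 had log2 fold changes of 0.37, 0.39, 0.40, 0.35 and 0.37. In the second they had 0.23, 0.47, 0.45, 0.15 and 0.37, and mt-Co2 had 0.38. The 12 genes had a median GC content of 37.4%, against 49.4% over the tested genes.

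**Figure D2:**
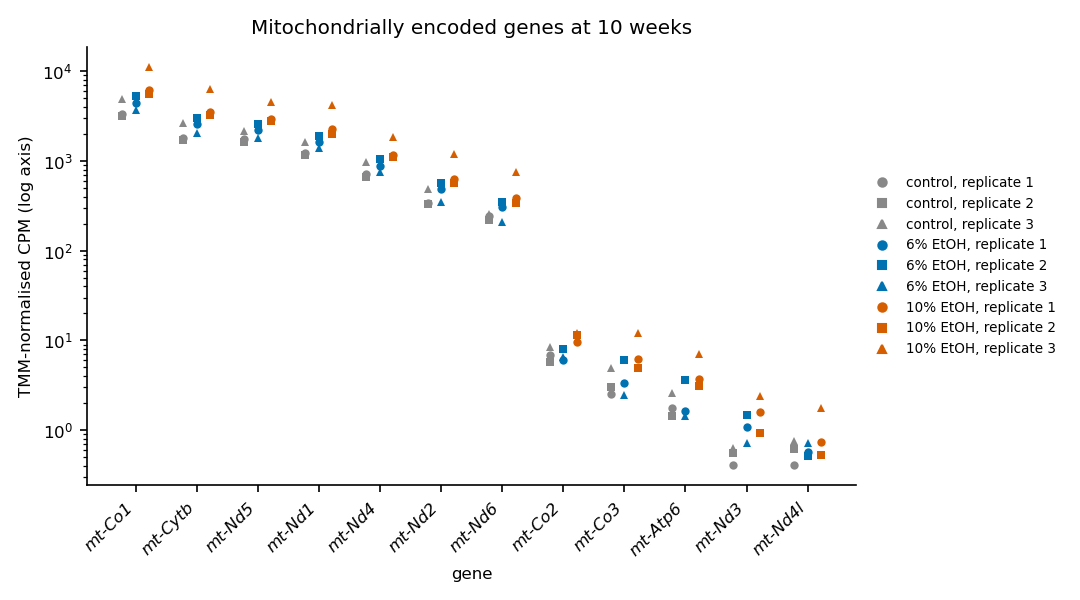
TMM-normalised CPM (vertical log axis) of the 12 tested mitochondrially encoded genes in each 10-week library, with grey, blue and orange points for control, 6% EtOH and 10% EtOH and the shape for the replicate. 10% EtOH replicate 3 is the highest orange point in each gene, and the other 2 orange points lie near or just above the blue points.

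After cessation the same list had a median log2 fold change of 0.72 between the doses, with 12 of 12 genes above 0 and 0 at an unadjusted p under 0.05 in either direction (background 1.47% higher and 3.85% lower). The share of reads assigned to mitochondrially encoded genes ranged there from 1.08% to 3.58% with 6% EtOH and from 1.15% to 4.81% with 10% EtOH, so that the ranges of the groups overlapped widely.

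Subunits of the same complexes that are encoded in the nucleus had list medians within 0.1 of 0, whose sign depended on the libraries used. Of 37 complex I subunits, 16 had a log2 fold change above 0 (median -0.02), 2 had an unadjusted p under 0.05 on the higher side and 0 on the lower. These were Ndufb4, at 34.0, 38.7 and 39.1 CPM with 6% EtOH and 41.1, 45.2 and 61.1 CPM with 10% EtOH (0.40 ± 0.15), and Ndufb1, at 58.7, 61.3 and 57.8 CPM and 66.7, 70.5 and 68.3 CPM (0.21 ± 0.09). Of 12 complex IV subunits, 3 lay above 0 (median -0.09), of which Cox6c (0.34 ± 0.13) and Cox7b (0.32 ± 0.12) had an unadjusted p under 0.05. The 14 subunits of complexes II and III (median -0.05) and the 17 of ATP synthase (median -0.04) had none at that p. Genes that shape and clear mitochondria were spread on both sides. Fis1, a fission factor, was at 76.2, 73.9 and 77.5 CPM and 68.4, 65.5 and 53.9 CPM (-0.28 ± 0.11), while Yme1l1, an inner membrane protease, was at 139.6, 145 and 127 CPM and 160.4, 152 and 257 CPM (0.47 ± 0.19), with most of the latter gap in replicate 3. Leaving out that library gave 0.21 for Ndufb4, 0.20 for Cox6c, 0.19 for Cox7b, -0.18 for Fis1 and 0.19 for Yme1l1, and removing length and GC trends gave 0.14 for Cox7b, -0.18 for Fis1 and 0.12 for Yme1l1. The 21 genes of this list had a median of 0.01, with 3 higher and 1 lower at an unadjusted p under 0.05. Of 74 mitochondrial ribosomal protein genes the median was -0.01, and of 82 cytosolic ribosomal protein genes -0.07, with 2 and 0 genes higher at an unadjusted p under 0.05 and 0 lower in either. Ribosomal protein genes have many near-identical copies in the genome, so their values are uncertain. The 18 genes of the TCA cycle had a median of -0.06 and the 23 of fatty acid oxidation -0.04. Leaving out 10% EtOH replicate 3 put the medians at 0.03 for complex I, 0.03 for complexes II and III, 0.03 for complex IV, 0.01 for ATP synthase and 0.03 for the cytosolic ribosomal proteins. Leaving out 10% EtOH replicate 2 put the same medians at -0.10, -0.14, -0.17, -0.08 and -0.15.

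**Figure D3:**
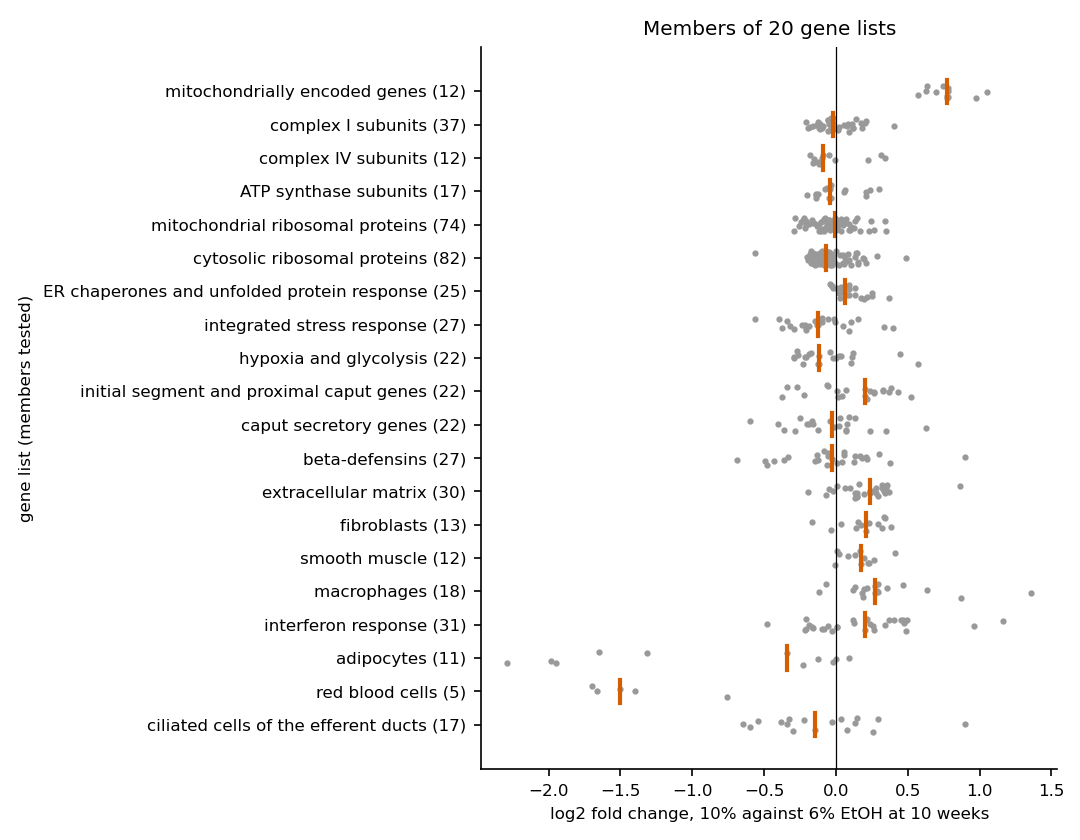
Log2 fold change between 10% and 6% EtOH at 10 weeks (horizontal axis) of each tested member (grey points) of 20 gene lists, with the list median as an orange bar and the number of members tested in brackets. The mitochondrially encoded genes have the highest median of those drawn at 0.77 and the red blood cell markers the lowest at -1.50. The medians of the other lists drawn run from -0.34 for the adipocyte markers to 0.27 for the macrophage markers.

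Most chaperones of the ER had log2 fold changes just above 0, and none passed the test. The ER chaperones and enzymes fold and quality-check secreted proteins, and the unfolded protein response raises their transcription through the factors Xbp1 and Atf6. Of 25 genes, all tested, 21 had a log2 fold change above 0, with a median of 0.06 and a range of -0.04 to 0.37. Groups did not overlap on the higher side in 9 of 25 genes (background 7.33%), and in 0 on the lower side. An unadjusted p under 0.05 was reached by 3 of the 25 (background 4.14%), and the adjusted threshold by none.

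The promoters of several of these genes hold the ER stress response element, the sequence bound by Atf6 and Xbp1 together with the factor NF-Y, and they are shown because the unfolded protein response is known to act through this sequence. RefSeq promoters (build GRCm38.p6, 250 bases before to 50 after each start) were searched on both strands for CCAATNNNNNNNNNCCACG, the only motif searched. It was found in 8 of the 21 listed genes with a promoter in the table (38.1%) and in 37 of all 27025 genes (0.137%). Among genes tested here it was in 21 of 11765 (0.178%). Because the list is one of unfolded protein response genes, the higher share among its members is no result of these data. The motif was in 4 of the 9 genes whose groups did not overlap and in 4 of the other 12. The 4 non-overlapping genes and 2 of the others are printed here on the strand of the gene, with the 19 bases of the match in capitals.
Hspa5: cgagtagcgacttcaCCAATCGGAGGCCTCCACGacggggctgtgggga
Hsp90b1: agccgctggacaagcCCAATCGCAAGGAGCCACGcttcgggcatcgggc
Canx: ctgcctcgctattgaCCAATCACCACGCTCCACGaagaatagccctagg
Dnajc3: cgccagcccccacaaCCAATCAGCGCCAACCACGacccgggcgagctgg
Pdia6: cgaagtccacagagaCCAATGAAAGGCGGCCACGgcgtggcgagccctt
Syvn1: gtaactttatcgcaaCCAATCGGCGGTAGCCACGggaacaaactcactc
These lie at chr2:34772010-34772058 on the plus strand (Hspa5), chr10:86705623-86705671 on the minus strand (Hsp90b1), chr11:50325785-50325833 on the minus strand (Canx), chr14:118937812-118937860 on the plus strand (Dnajc3), chr12:17266476-17266524 on the plus strand (Pdia6) and chr19:6046517-6046565 on the plus strand (Syvn1). The counts were made on a later build, so the positions are those of the RefSeq table alone. Hsp90b1 also holds a match in the opposite orientation, and the only match in Calr and in Creld2 is in that orientation. A match is a description of these letters and not evidence that the factors were bound.

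Among the genes with the element, Hsp90b1, the ER paralogue of Hsp90, stood at 2005, 2096 and 1909 CPM with 6% EtOH and 2268, 2384 and 2497 CPM with 10% EtOH (0.25 ± 0.11). Hspa5, the ER Hsp70 known as BiP, stood at 2857, 2969.8 and 2813 CPM and 3036, 3186 and 3227 CPM (0.13 ± 0.11). Dnajc3, a co-chaperone of Hspa5, stood at 494, 512 and 514 CPM and 559.5, 555 and 626 CPM (0.20 ± 0.10). All 3 had 10% EtOH libraries above every 6% EtOH library, and in Hspa5 the fold change was little larger than its SE. Canx, the membrane lectin calnexin, stood at 1099, 1090.4 and 1016 CPM and 1137, 1143 and 1124 CPM (0.09 ± 0.10), and with length and GC trends removed its log2 fold change was -0.05. Pdia6, a disulphide isomerase, was at 969, 984 and 955 CPM and 999.6, 1078 and 891 CPM (0.03 ± 0.11), and Syvn1, the ubiquitin ligase of ER-associated degradation, at 126, 137 and 160.4 CPM and 129, 145 and 159 CPM (0.03 ± 0.12). In Pdia6 and Syvn1 the groups overlapped.

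Of the members without this element in the window or without a promoter in the table, Dnajb9, another Hspa5 co-chaperone, had the largest difference of the list, at 111, 114 and 114 CPM with 6% EtOH and 134, 128 and 174 CPM with 10% EtOH (0.37 ± 0.12). Sec61b and Sec61g, subunits of the channel through which proteins enter the ER, had log2 fold changes of 0.25 ± 0.10 and 0.17 ± 0.09, and Pdia3, a disulphide isomerase of glycoproteins, 0.21 ± 0.10. Xbp1 itself was at 175, 186 and 191 CPM and 199, 192 and 196 CPM (0.09 ± 0.08). Several other members split the 10% EtOH group: Calr, at 3413, 3628 and 2791 CPM, and Pdia4, at 969, 1026 and 734 CPM, were lowest of all 6 libraries in replicate 3 and highest in replicate 2. Without 10% EtOH replicate 3 the list median was 0.09, with 22 of 25 genes above 0 and 5 at an unadjusted p under 0.05, and without 10% EtOH replicate 2 it was 0.03. With length and GC trends removed it was 0.09, and single genes then had log2 fold changes of 0.11 for Hsp90b1, 0.08 for Dnajc3, 0.13 for Dnajb9, 0.09 for Sec61g, 0.05 for Pdia6, 0.19 for Syvn1 and 0.18 for Xbp1. Dnajb9 was at 0.22, Pdia6 at 0.10 and Syvn1 at -0.04 without 10% EtOH replicate 3. After cessation 21 of 25 genes lay above 0 (median 0.10). At an unadjusted p under 0.05, 0 were higher and 1 lower (background 1.47% higher and 3.85% lower).

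**Figure D4:**
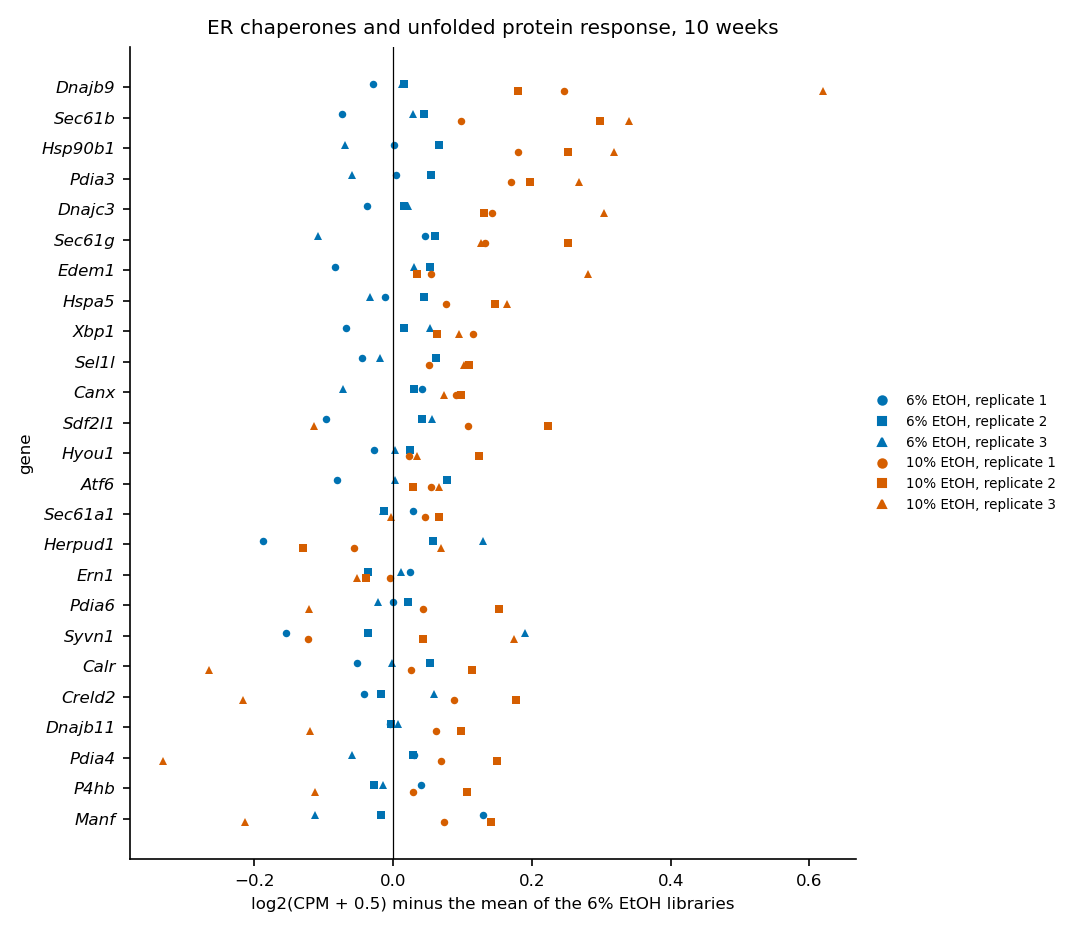
Level of the 25 ER chaperone and unfolded protein response genes in each library of 6% EtOH (blue) and 10% EtOH (orange), as log2(CPM + 0.5) minus the mean of the 3 libraries of 6% EtOH (horizontal axis), in order of p. Orange points lie right of the blue points in most of the upper rows, by up to 0.37 in log2 fold change, and 10% EtOH replicate 3 (orange triangles) lies to the left in several lower rows.

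The integrated stress response and hypoxia lists had medians below 0, which lay within 0.1 of 0 without 10% EtOH replicate 3. The median of the heat shock list lay within 0.1 of 0, and no gene of these lists passed the test. The 27 tested genes of the integrated stress response, which the factor Atf4 induces when translation is slowed, had a median of -0.12 with 6 above 0. Mthfd2, a mitochondrial folate enzyme and Atf4 target, was at 115, 99.4 and 105 CPM with 6% EtOH and 94.2, 94.1 and 58.1 CPM with 10% EtOH (-0.37 ± 0.17), and Vldlr, a lipoprotein receptor, at 79.8, 97.2 and 84.5 CPM and 104, 97.9 and 141 CPM (0.40 ± 0.15), the 1 gene of the list at an unadjusted p under 0.05. The gap in Mthfd2 was mostly that of 10% EtOH replicate 3, and without this library the list median was -0.03, with Mthfd2 at -0.18 and Vldlr at 0.21. The list median was -0.23 without 10% EtOH replicate 2, and with length and GC trends removed it was -0.07. Of 15 heat shock genes (median -0.01), Hspb1, a small heat shock protein, was at 22.8, 19.5 and 21.6 CPM and 15.8, 17.9 and 8.57 CPM (-0.60 ± 0.23), again with the lowest value in replicate 3. It was the 1 gene of that list at an unadjusted p under 0.05, and its log2 fold change was -0.34 without that library. The 22 tested genes of hypoxia and glycolysis had a median of -0.12, which was -0.02 without 10% EtOH replicate 3 and -0.07 with length and GC trends removed. Eno1, the glycolytic enolase, was at 127, 121 and 131 CPM and 112, 111 and 84.9 CPM (-0.29 ± 0.11), and its log2 fold change was -0.17 in the former setting and -0.18 in the latter.

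Enzymes that handle ethanol and reactive oxygen had list medians near 0, and none passed the test. Of 15 tested genes of ethanol and aldehyde metabolism (median -0.02), 6 lay above 0, 0 were higher and 1 was lower at an unadjusted p under 0.05. That gene was Adh1, the class I alcohol dehydrogenase, at 42.9, 50.9 and 48.1 CPM with 6% EtOH, 39.9, 38.7 and 35.5 CPM with 10% EtOH and 52.0, 42.2 and 65.8 CPM in the controls (-0.31 ± 0.11). All 3 controls lay above the 10% EtOH libraries, and they overlapped the range of 6% EtOH. Aldh3b2, named above by its p with a log2 fold change of -0.81 ± 0.20, was not in this list and not in these counts. The lowest log2 fold change within the list was -0.43. Aldh7a1, an aldehyde dehydrogenase of lysine breakdown, was at 100.05, 105 and 103 CPM and 98.3, 98.9 and 75.03 CPM (-0.18 ± 0.11). Aldh1a2, which makes retinoic acid, and Aldh3a2, which oxidises fatty aldehydes, had log2 fold changes of 0.20 ± 0.17 and 0.12 ± 0.10, with overlapping groups. Leaving out 1 library at a time moved the first between 0.13 and 0.34 and the second between 0.04 and 0.16. Aldh7a1 was at -0.06 without 10% EtOH replicate 3. Of 33 antioxidant enzymes and Nrf2 targets (median -0.07, 12 above 0), Prdx1, a peroxiredoxin, was the 1 gene at an unadjusted p under 0.05, at 553, 625 and 618 CPM and 662, 670.2 and 883 CPM (0.31 ± 0.13). Mt1, a metallothionein, was at 104, 103 and 87.8 CPM and 87.9, 88.5 and 59.5 CPM (-0.32 ± 0.15). Both values were smaller without 10% EtOH replicate 3, at 0.15 and -0.16, and Prdx1 was at 0.13 with length and GC trends removed.

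Genes of small RNA handling and vesicle release, listed because sperm take up RNA in the caput, were spread on both sides of 0. Of 22 tested genes of small RNA biogenesis and RNA methylation the median was -0.05, with 7 above 0 and 0 at an unadjusted p under 0.05. Trdmt1, the methyltransferase of transfer RNA also known as Dnmt2, was at 3.81, 5.27 and 4.22 CPM with 6% EtOH and 5.50, 6.44 and 6.53 CPM with 10% EtOH (0.47 ± 0.22). Its groups did not overlap, but its levels were low and its SE wide. Ago1, an Argonaute protein, was at 77.1, 79.9 and 74.98 CPM and 76.4, 66.9 and 59.2 CPM (-0.19 ± 0.11). Of 20 vesicle genes (median -0.03), Rab11a, a recycling GTPase, was at 52.9, 57.0 and 58.4 CPM and 62.1, 65.7 and 81.4 CPM (0.32 ± 0.12). Stam, a subunit of the sorting complex ESCRT-0, had a log2 fold change of 0.32 ± 0.14, and Hgs, its partner in that complex, -0.30 ± 0.12. The 2 partners thus lay on opposite sides, each with an unadjusted p under 0.05 and none past the adjusted threshold. Leaving out 10% EtOH replicate 3 gave 0.19 for Rab11a, 0.18 for Stam, -0.19 for Hgs and -0.11 for Ago1. Removing length and GC trends gave 0.04, 0.06 and -0.16 for the first 3 and 0.28 for Trdmt1.

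Genes of the initial segment, the most proximal stretch of the epididymis, which depends on factors in testicular fluid acting through the receptor Ros1, mostly had log2 fold changes above 0, and none passed the test. Of 22 genes, 16 had a log2 fold change above 0 (median 0.20), 4 were higher at an unadjusted p under 0.05 and 0 lower, and in 6 the groups did not overlap on the higher side. Adam28, a membrane metalloprotease gene, stood at 2991, 3741 and 3624 CPM with 6% EtOH and 4114, 4010.2 and 6696 CPM with 10% EtOH (0.52 ± 0.21). Cst8, a cystatin, stood at 1625, 1909.9 and 1936 CPM and 2121, 2058 and 3188 CPM (0.43 ± 0.18). Ros1 stood at 681, 759 and 689.8 CPM and 795, 764 and 991 CPM (0.26 ± 0.13). In these 3 genes, replicates 1 and 2 of 10% EtOH lay just above the highest 6% EtOH library and replicate 3 well above them. Ovch2, a serine protease gene, Lcn9, a lipocalin, and Dusp6, a phosphatase of the ERK kinases induced by ERK signalling, had log2 fold changes of 0.37 ± 0.16, 0.39 ± 0.18 and 0.20 ± 0.09. Other members were lowest in that same replicate. Rnase9, a secreted RNase family member, was at 2074, 659 and 415 CPM and 1484, 1112 and 114 CPM, and Spink2, a protease inhibitor, at 453, 295 and 182 CPM and 354, 307 and 58.7 CPM. Both spanned a wide range in 6% EtOH as well. Ggt1, a gamma-glutamyltransferase, was at 243, 191 and 164 CPM and 193, 207 and 73.8 CPM. Without 10% EtOH replicate 3 the list median was 0.10, and without 6% EtOH replicate 1 it was 0.13. In the former fit 18 of 22 lay above 0 and 1 was at an unadjusted p under 0.05, with log2 fold changes of 0.24 for Adam28, 0.20 for Cst8, 0.14 for Ros1, 0.17 for Ovch2 and 0.15 for Lcn9. Adam28 was at 0.24 with length and GC trends removed. Expression of these genes follows position along the duct, and how much initial segment each sample held is not given in the sources used here.

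Other secretory genes of the caput lay around 0. The 22 tested caput secretory genes had a median of -0.03, with 10 above 0. Crisp1, a sperm-coating protein, was the 1 gene at an unadjusted p under 0.05, at 657, 723 and 618 CPM with 6% EtOH and 796, 777 and 1496 CPM with 10% EtOH (0.62 ± 0.25), again highest in replicate 3. Adam7, which is transferred to sperm, was at 18487, 21746 and 20818 CPM and 21024, 22629 and 28271 CPM (0.24 ± 0.16). Without that library the log2 fold changes were 0.24 for Crisp1 and 0.10 for Adam7, and with length and GC trends removed 0.17 and 0.10. Of 27 tested beta-defensins, small secreted antimicrobial peptides with closely related sequences whose counts may be shared between copies, the median was -0.02. Defb41 stood at 347, 411 and 518 CPM in the controls, 821, 1036 and 881 CPM with 6% EtOH and 1082, 1281 and 2708 CPM with 10% EtOH (0.90 ± 0.34), the 3 groups in that order with no overlap. The log2 fold change of Defb41 was 0.37 without 10% EtOH replicate 3 and 0.41 with length and GC trends removed. Defb47 was at 972, 1712 and 1764 CPM and 976, 1178 and 1136 CPM (-0.43 ± 0.21), with a log2 fold change of -0.66 without 6% EtOH replicate 1. Cftr, the chloride channel of the luminal epithelium, was at 101, 134 and 116 CPM and 149.7, 148 and 274 CPM (0.71 ± 0.25), the 1 gene at an unadjusted p under 0.05 of 18 tested fluid and ion transport genes (median 0.03). Cldn8 and Cldn12, claudins of tight junctions, had log2 fold changes of 0.29 ± 0.11 and 0.29 ± 0.12, and Tjp3, a junctional scaffold, -0.46 ± 0.19, within a list of 18 junction genes with a median of -0.01. Leaving out 10% EtOH replicate 3 gave 0.35 for Cftr, 0.18 for Cldn12 and -0.26 for Tjp3, and removing length and GC trends gave 0.09 for Cldn8.

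No cell type marker passed the test between the doses. In whole tissue, fewer cells of a type and less RNA per cell cannot be told apart. Fibroblast markers (13 genes, median 0.21, 11 above 0) summed to 1221 to 1540.0 CPM with 6% EtOH and 1457 to 1685 CPM with 10% EtOH. Pdgfra, a PDGF receptor of fibroblasts, was at 326, 398 and 417 CPM and 436, 431 and 569 CPM (0.34 ± 0.14), and at a log2 fold change of 0.19 without 10% EtOH replicate 3. The 30 extracellular matrix genes had a median of 0.24, with 26 above 0 and 3 at an unadjusted p under 0.05, and without 10% EtOH replicate 2 the median was 0.11, as was that of the fibroblast markers. Without 6% EtOH replicate 2 the fibroblast median was 0.34, and without 6% EtOH replicate 1 the extracellular matrix median was 0.15. Col1a1, a chain of type I collagen, was at 64.7, 84.0 and 69.8 CPM and 90.3, 111 and 74.98 CPM (0.34 ± 0.15), and Nid1, a basement membrane protein, at 30.8, 39.8 and 33.0 CPM and 40.9, 49.4 and 40.1 CPM (0.33 ± 0.13). Replicate 2 of 10% EtOH held the highest value of both, and the Col1a1 groups overlapped. Without that library the log2 fold change of Col1a1 was 0.18. Smooth muscle markers (12 genes) had a median of 0.17 (-0.02 without 10% EtOH replicate 2 and 0.29 without 6% EtOH replicate 3), with 0 at an unadjusted p under 0.05, and endothelial markers (13 genes) a median of 0.09 (0.35 without 6% EtOH replicate 3), with 1, the sialomucin gene Emcn (0.77 ± 0.25).

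The median of the macrophage markers depended on 10% EtOH replicate 3. Of 18 genes 16 lay above 0, with a median of 0.27 that was 0.04 without that library. Adgre1, which encodes F4/80, was at 13.3, 14.3 and 13.9 CPM with 6% EtOH and 12.6, 15.7 and 77.6 CPM with 10% EtOH, and Aif1 at 5.91, 5.04 and 4.35 CPM and 5.85, 6.37 and 15.7 CPM. In both, 1 library of 10% EtOH held most of the difference. The summed level of the 18 markers was 380 to 401 CPM with 6% EtOH and 377 to 586 CPM with 10% EtOH. The interferon response list likewise had a median of 0.20 over 31 genes, 0.04 without replicate 3 and 0.36 without 10% EtOH replicate 1. Rsad2, an antiviral enzyme, was an exception within it, at 1.14, 2.12 and 2.70 CPM with 6% EtOH and 3.72, 3.32 and 4.55 CPM with 10% EtOH (0.96 ± 0.34), with no overlap, at low levels. Ifit1, which binds viral RNA, was at 2.92, 2.92 and 4.35 CPM and 2.97, 7.36 and 12.5 CPM (1.16 ± 0.47), with a log2 fold change of 0.59 without replicate 3.

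Fat and blood markers had list medians below 0, and single genes such as Fabp4 and Hba-a1 varied several-fold within the 6% EtOH group. Of 11 tested adipocyte markers 2 lay above 0 (median -0.34). Summed, the listed markers were 120 to 174 CPM with 6% EtOH and 107 to 128 CPM with 10% EtOH. Plin4, the marker of smallest p, had a log2 fold change of -0.34. It ranged from -0.46 to -0.25 with 1 library left out and was -0.21 with length and GC trends removed. Fabp4, a fatty acid carrier, was at 2.29, 4.41 and 10.6 CPM with 6% EtOH and 0.0991, 0.199 and 4.14 CPM with 10% EtOH (-1.95 ± 1.29), and Lep, the gene of leptin, at 0.953, 0.917 and 2.24 CPM and 0, 0.133 and 0.700 CPM (-2.29 ± 0.91). Epididymal fat adjoins the caput, and replicates 1 and 2 of 10% EtOH held almost no Fabp4 or Lep transcript. Replicate 3 lay within the 6% EtOH range for Fabp4 and below it for Lep. Without replicate 3 the list median was -2.48, and without 6% EtOH replicate 1 it was -1.05. It was -1.33 without the low-count filter, -1.32 in the fit on 18 libraries and -0.21 with length and GC trends removed. Fabp4 and Lep had log2 fold changes of -5.26 and -4.39 without 10% EtOH replicate 3, and Fabp4 one of -1.18 without 6% EtOH replicate 3. All 5 tested red blood cell markers lay below 0 (median -1.50). Hba-a1, an alpha globin gene with a near-identical copy, was at 1.65, 6.19 and 18.4 CPM and 2.48, 3.18 and 2.39 CPM (-1.70 ± 0.80), and the 6% EtOH values alone spanned more than the gap between the groups. Without 6% EtOH replicate 3 the log2 fold change of Hba-a1 and the list median were both -0.55. The summed globin and other red cell markers were 18.4 to 138 CPM with 6% EtOH and 18.2 to 33.8 CPM with 10% EtOH.

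Epithelial cell markers had list medians between -0.15 and -0.07. Of 8 tested markers of clear and narrow cells, which acidify the lumen, 2 were lower at an unadjusted p under 0.05 (background 2.34%), namely Foxi1, their defining transcription factor, at 98.7, 103 and 90.9 CPM with 6% EtOH and 75.8, 87.9 and 63.1 CPM with 10% EtOH (-0.37 ± 0.12), and Atp6v1c2, a proton pump subunit (-0.54 ± 0.21). The other 6 were not, and the list median was -0.07. Atp6v0d2, another pump subunit, was at 107, 118 and 109.6 CPM and 128, 115 and 136 CPM (0.19 ± 0.10), with a log2 fold change of 0.00268 when length and GC trends were removed. Of 10 basal cell markers (median -0.12), Cldn1 was higher at an unadjusted p under 0.05 (0.45 ± 0.18) and Krt5, the basal keratin, was at 58.1, 67.4 and 59.6 CPM and 51.7, 58.6 and 35.1 CPM (-0.35 ± 0.17). Leaving out 10% EtOH replicate 3 put these at 0.20 and -0.16 and the list median at -0.03, and with length and GC trends removed Cldn1 was at 0.15 and the median was 0.0064. Of 17 markers of the ciliated cells of the efferent ducts, which join the testis to the epididymis, Rsph1 was the 1 gene at an unadjusted p under 0.05. The list median was -0.15, but -0.56 without 10% EtOH replicate 3 and 0.05 without 6% EtOH replicate 3. Immediate early genes, the fast first response of a cell to stimulation, had a median of -0.03 over 21 genes at 10 weeks, with 0 at an unadjusted p under 0.05 in either direction. After cessation the dose contrast of the same list had a median of -0.77 over 24 genes, with 1 above 0. There 18 were lower at an unadjusted p under 0.05, beside 3.85% of all genes. Atf3, a stress-induced factor, was at 5.91, 5.38 and 5.14 CPM and 3.67, 4.98 and 4.02 CPM at 10 weeks (-0.38 ± 0.22) and at 317, 154 and 119.8 CPM and 65.4, 68.9 and 53.9 CPM after cessation (-1.64 ± 0.33). In edgeR's quasi-likelihood test of the interaction, 14 of the 24 genes had an unadjusted p under 0.05 (background 2.86%) and none passed the adjusted threshold.

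**Figure D5:**
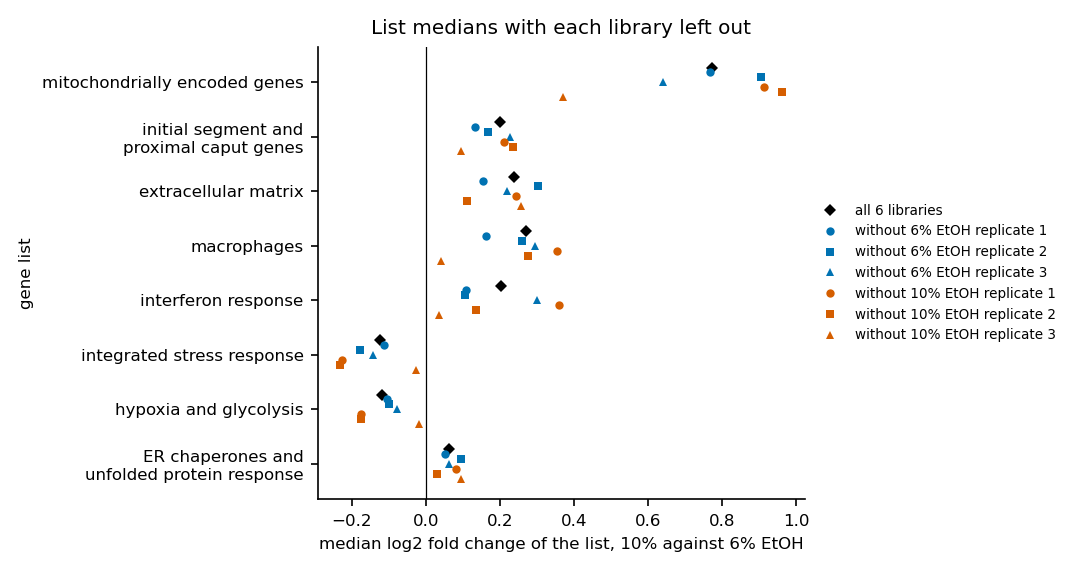
Median log2 fold change between 10% and 6% EtOH (horizontal axis) of 8 gene lists with all 6 libraries (black diamond) and with each library left out in turn (coloured by its group, shaped by its replicate). Leaving out 10% EtOH replicate 3 (orange triangle) moves the medians of the mitochondrially encoded genes to 0.37, the macrophage markers to 0.04 and the interferon response to 0.04. The median of the ER chaperones ranges from 0.03 without 10% EtOH replicate 2 to 0.09 without 10% EtOH replicate 3, and no direction is read from it.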

How the data were processed

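The deposited values were whole-number read counts per gene, 1 table per library with 53819 gene entries, made by the authors. The submitters' processing notes name featureCounts, STAR, Trimmomatic and the build GRCm39 (mm39). For tool versions, annotation, strand and multi-mapped reads the settings were not given in the sources used here, so overlapping or antisense genes cannot be told apart. Total RNA was extracted with an RNeasy kit, per the labels' protocols. Genes were kept by edgeR's filterByExpr (minimum count 10, total 15), scaled by TMM and tested with edgeR 4.0.16 (R 4.3.3) by robust glmQLFit and glmQLFTest, two-sided, with group as the only term, on the 6 libraries compared. The interaction with cessation used 12 libraries. Alternatives were DESeq2 1.42.0, limma 3.58.1 voom, RLE size factors, other filters, a spread shared over 9 or 18 libraries, removal of length and GC trends (spline of 5 degrees of freedom, 97.5% of genes matched by symbol to GENCODE transcripts of an earlier build) and leaving out each library. Levels are CPM scaled by TMM over the 18 libraries. Chi-square per degree of freedom between replicates was 8.64 to 53.0, so no pair had the same counts within sampling noise, which does not show whether they came from separate animals. Of 50 gene lists, 49 had a tested member. The members, lists and tests were chosen with earlier results of these data known. Named genes were the 10 of smallest p in each direction at a mean log2 CPM of at least 1, excluding clone and model names, since fewer than 5 passed the threshold, and up to 4 members of smallest p in each list described. Members of the ER, mitochondrial and initial segment lists beyond these 4 were named after their values were seen.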

Additional observations from a re-analysis of the deposited data

How the results depend on the processing

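At 10 weeks 0 genes passed with RLE size factors, the stricter filter, DESeq2, limma voom, a spread shared over 9 or 18 libraries, length and GC trends removed, and each library left out (0 to 0). Without the low-count filter 225 passed. The smallest adjusted p ranged over these settings from 5.58e-06 without that filter, and 0.0555 without 10% EtOH replicate 3 (Cfd, an adipocyte gene), to 0.994 with 18 libraries. Counts at an unadjusted p under 0.05 ran from 490 without 6% EtOH replicate 3 to 2251 without the low-count filter, with 1889 without 10% EtOH replicate 2, 527 with 18 libraries, 1647 with 9, and 662 and 675 without 6% EtOH replicates 1 and 2. For the interaction 29 genes passed without the filter and 1 with DESeq2. Leaving out 1 library gave 0 to 3, the 3 being Ccn1, Hmox1 and Ddit3 without 6% EtOH cessation replicate 3. The cause of these changes was not tested. With length and GC trends removed, log2 fold changes took the other sign for Uqcrb (-0.115), Ndufa4 (-0.0191), Atp5l (-0.0336), Mff (-0.0356), Fundc1 (-0.0156), Atp6ap2 (-0.00189), mt-Nd3 (-0.121) and Canx (-0.0516). Leaving out 1 library moved Rnase9 between -0.777 and 0.747, Spink2 between -0.763 and 0.0938 and Ggt1 between -0.580 and 0.00560, with values above 0 without 10% EtOH replicate 3 (Rnase9 0.310) or, for Rnase9 and Spink2 (0.00657), 6% EtOH replicate 1. Pdia6 ranged from -0.0359 without 10% EtOH replicate 2 to 0.1001 without 10% EtOH replicate 3, and Syvn1, between -0.0447 and 0.132, was below 0 without 10% EtOH replicate 3 or 6% EtOH replicate 1 (-0.0427). No paired analysis was possible because the labels carry no replicate numbers. With 3 libraries a group and a common biological coefficient of variation of 18.2%, small differences were not detectable.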

Other observations

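Some genes outside the lists are given here as values only, and they were chosen after the values were seen. Of 322 tested genes named Zfp and a number, most of which encode zinc finger proteins, 200 had a log2 fold change above 0 (median 0.11), and 50 were higher and 9 lower at an unadjusted p under 0.05. That is 15.5% of them on the higher side, beside 4.14% of all genes, and 13 were more than 2-fold higher at a mean log2 CPM of at least 1. Zfp958 stood at 8.39, 9.45 and 5.14 CPM with 6% EtOH and 12.7, 14.2 and 29.9 CPM with 10% EtOH, and Zfp930 at 6.10, 7.10 and 6.00 CPM and 10.8, 10.2 and 23.0 CPM, both highest in 10% EtOH replicate 3. Without that library 5.61% were higher at an unadjusted p under 0.05 and the median was 0.04, and with length and GC trends removed the values were 8.12% and 0.04. Their median GC content was 44.4%, against 49.4% over the tested genes. Many belong to families of closely related sequence, so their counts may be shared between copies. After cessation 207 of 322 lay above 0 (median 0.14). At an unadjusted p under 0.05, 11 (3.42%) were higher and 5 lower, beside 1.47% and 3.85% of all genes.

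Some genes of white blood cells outside the marker lists, also chosen after the values were seen, were high in 10% EtOH replicate 3 alone. Prkcb, a protein kinase C of lymphoid and myeloid cells, was at 3.30, 4.53 and 7.12 CPM with 6% EtOH and 5.01, 5.64 and 36.3 CPM with 10% EtOH. Rac2, a GTPase of blood cells, was at 3.18, 2.92 and 3.23 CPM and 2.97, 3.05 and 22.9 CPM, and Spi1, the transcription factor PU.1, at 3.11, 1.89 and 2.44 CPM and 3.17, 2.65 and 9.79 CPM. The listed markers of other white cells did not all have this order. The 9 tested markers of MHC class II and dendritic cells (median log2 fold change -0.08) summed to 135 CPM in that library, the lowest of the 6, and to 159 to 243 CPM in the other 5. The 8 tested markers of T and NK cells (median -0.08) summed to 638 CPM there, the highest of the 6, and to 382 to 488 CPM in the other 5. Ribosomal RNAs remaining in the libraries had no single order. Rn18s was at 993, 1247 and 577 CPM with 6% EtOH and 613, 6507 and 2525 CPM with 10% EtOH, highest in replicate 2. The mitochondrial mt-Rnr2 was at 78.1, 104 and 36.0 CPM and 92.8, 235 and 621 CPM. mt-Rnr1 was at 52.8, 64.8 and 15.6 CPM and 57.4, 115 and 234 CPM. Both were highest in 10% EtOH replicate 3. Among genes more than 2-fold lower, Akr1b7, an aldose reductase family member, was at 0.127, 0.917 and 26.3 CPM and 0, 0.464 and 1.63 CPM, so that 1 library of 6% EtOH held the difference.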
